A study of Mus musculus with 33 samples.

Results

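Tamoxifen-labelled endothelium of mouse long bone was compared between a driver from the apelin gene (Apln+ EC, 3 libraries) and a driver from the endothelial cell-specific molecule gene (Esm1+ EC, 3 libraries), 6 of the 33 libraries of the series. The Apln+ libraries came from Apln-CreERT2 R26-mTmG mice and were labelled as GFP+ cells of whole bone. The Esm1+ libraries came from Esm1-CreER R26-mTmG mice and were labelled as Tomato+/GFP+ cells of bone marrow. All 6 came from the femur and tibia of C57BL/6 mice that were treated with tamoxifen and are labelled as 8-12 weeks old. The tissue was digested with collagenase IV, sorted by FACS, and amplified with SMART-Seq v4 before Nextera XT library preparation. Genes entered the comparison when they had at least 1 FPKM (fragments per kilobase of gene, scaled to library size) in at least 3 of the 6 libraries, which kept 11657 of 38899 genes. A further 6 libraries of Cdh5-mTnG mice, 3 of diaphysis EC from untreated mice and 3 of EC taken after 9 Gy irradiation (9Gy1D EC), were used beside them because the first stood in the Apln+ table and the second in the Esm1+ table. The labels of the Esm1+ and 9Gy1D libraries name another table than the one that held these columns, which were matched to the libraries by column name.

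Endothelial cells line blood vessels, and in bone marrow they form arterioles, capillaries near bone and wide, leaky sinusoids through which blood cells leave. Apelin is a secreted peptide of sprouting vessels that acts on the receptor APLNR, and its gene is induced by low oxygen and in tip cells. ESM1 (endocan) is a secreted proteoglycan that is also known as a tip cell gene and responds to VEGF. A CreER driver recombines the mTmG reporter only while tamoxifen is present, and the membrane GFP then stays on in the cell and its progeny, so the sort gate reads past activity of the driver gene and the RNA reads its present level. The interval between tamoxifen and collection is not given in the sources used here.

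The stretches before the starts of both driver genes are shown because the names of the groups rest on these loci, together with that of Emcn (endomucin), a vessel gene that separated the groups. They are RefSeq promoter windows on GRCm38.p6, 250 bases up to the base before the start, read 5′ to 3′ on the gene's strand. Capitals mark matches of the ETS core GGAA and of the hypoxia response core ACGTG or GCGTG on either strand, with no overlap between them in these windows.
Apln, chrX:48034854-48035103, minus strand: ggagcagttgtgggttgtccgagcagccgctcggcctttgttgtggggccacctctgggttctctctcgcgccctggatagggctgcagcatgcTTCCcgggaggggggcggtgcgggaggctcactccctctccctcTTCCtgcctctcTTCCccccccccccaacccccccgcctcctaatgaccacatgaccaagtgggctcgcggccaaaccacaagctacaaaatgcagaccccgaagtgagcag
Esm1, chr13:113209409-113209658, plus strand: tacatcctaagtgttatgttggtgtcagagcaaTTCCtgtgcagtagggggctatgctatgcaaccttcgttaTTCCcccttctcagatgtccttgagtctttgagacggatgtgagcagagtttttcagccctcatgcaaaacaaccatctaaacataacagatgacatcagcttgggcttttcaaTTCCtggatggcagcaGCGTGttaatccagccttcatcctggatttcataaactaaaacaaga
Emcn, chr3:137340828-137341077, plus strand: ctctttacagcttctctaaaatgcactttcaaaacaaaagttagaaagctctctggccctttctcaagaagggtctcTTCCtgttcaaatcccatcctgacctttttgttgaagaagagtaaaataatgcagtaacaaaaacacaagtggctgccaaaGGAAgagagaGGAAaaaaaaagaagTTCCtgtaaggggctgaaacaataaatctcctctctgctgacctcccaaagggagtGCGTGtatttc
The Apln window held 3 matches of the ETS core and 0 of the hypoxia core, the Esm1 window 3 and 1, and the Emcn window 4 and 1. In all 32851 RefSeq windows of this length, 93.4% held the ETS core and 38.6% the hypoxia core, so these matches are a description of the letters only.

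Apln itself was lower in Apln+ EC than in Esm1+ EC, against the name of the group. Apln (ENSMUSG00000037010.7, chrX:48025146-48034853 on GRCm38, minus strand) had 0.382, 0.884 and 1.19 scaled FPKM in Apln+ EC, against 25.4, 27.2 and 17.4 scaled FPKM in Esm1+ EC. These rest on 10, 29 and 38 recovered reads in Apln+ EC and 528, 620 and 368 reads in Esm1+ EC. The groups lay far apart, with means of 0.817 ± 0.406 in Apln+ EC and 23.3 ± 5.23 in Esm1+ EC (SD, n = 3 each), a log2 difference of -3.74 ± 0.26 (SE, limma, adjusted p = 0.0099). Apln lay the same way in the other groups of the same tables: diaphysis EC had 0.855, 0.501 and 1 FPKM as deposited, against 66.2, 56.9 and 45.6 FPKM in 9Gy1D EC. Formed within each table, (Apln+ minus diaphysis) minus (Esm1+ minus 9Gy1D), the contrast for Apln was 1.4 on the log2 scale (limma, adjusted p = 0.012), the opposite sign. This does not show more Apln in Apln+ EC. With 12 libraries scaled together, Apln averaged 0.795 ± 0.395 FPKM in Apln+ EC and 0.753 ± 0.247 in diaphysis EC (SD, n = 3 each). The sign came from Esm1+ EC, at 23 ± 5.31, lying below the irradiated 9Gy1D EC, at 60.9 ± 10.5. The table, the sort gate, the Cre line and the group cannot be told apart for the lower Apln level in Apln+ EC.

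Esm1 did not separate the groups with all 6 libraries. Esm1 (ENSMUSG00000042379.8, chr13:113209659-113218098, plus strand) had 10.9, 49.7 and 30.9 scaled FPKM in Apln+ EC, against 23.3, 23.8 and 15.6 scaled FPKM in Esm1+ EC. The groups overlapped, with a log2 difference of 0.32 ± 0.52 (SE, n = 3 each, limma, adjusted p = 0.68). Aplnr, the apelin receptor (chr2:85136225-85139923, plus strand), had 92, 290 and 310 scaled FPKM in Apln+ EC and 109, 114 and 80.7 in Esm1+ EC, a log2 difference of 1.01 that did not pass the test (limma, adjusted p = 0.17). Without Apln+ replicate 1, and with Esm1+ replicates 1 and 2 averaged, the log2 differences were 1.65 for Aplnr (limma, adjusted p = 0.0049) and 0.99 for Esm1 (adjusted p = 0.047), both called higher. The replicate 1 library of Apln+ EC was the low value within its group for Apln, Esm1 and Aplnr, so that leaving it out raises their Apln+ means by itself.

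**Figure D1:**
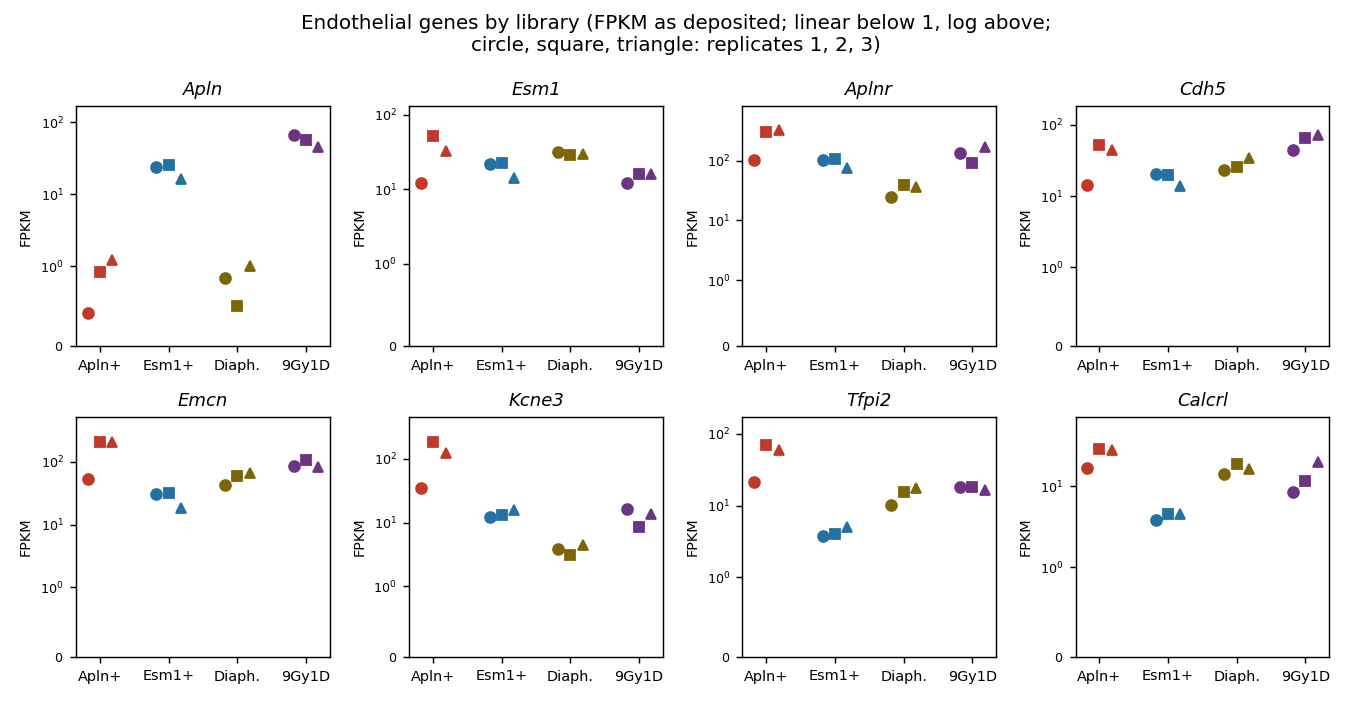
Deposited FPKM of 8 endothelial genes in each library of Apln+ EC, Esm1+ EC, diaphysis EC and 9Gy1D EC (3 each), on an axis that is linear below 1 and logarithmic above. Apln lies at 0.419 to 1.24 in Apln+ EC and at 16.1 to 25.7 in Esm1+ EC, while Emcn, Kcne3, Tfpi2 and Calcrl lie higher in every Apln+ library than in every Esm1+ library.

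The libraries held 8746955, 9889694 and 10055742 reads counted to genes in Apln+ EC and 7271273, 7996469 and 7269788 in Esm1+ EC. All carried much blood cell RNA: the 16 neutrophil genes took 24, 11.5 and 8.29% of the FPKM sum in Apln+ EC and 17.5, 17.4 and 18.9% in Esm1+ EC, while the 20 pan-endothelial genes took 0.15, 0.723 and 0.714% in Apln+ EC and 0.273, 0.271 and 0.146% in Esm1+ EC. Apln+ replicate 1 thus stood apart from the other Apln+ libraries, with less endothelial and more neutrophil RNA. Esm1+ replicates 1 and 2 were nearly alike: the median chi-square over genes was 1.31 times counting noise between them, against 12.7 and 13.4 to replicate 3 and 6.18 to 36.8 between Apln+ libraries. The labels give them as separate samples and they were kept as 2, but in libraries without molecular identifiers so small an excess over counting noise cannot show whether they are technical repeats. The fit on their mean is given beside the counts. In bulk samples such as these, fewer cells of a type and less RNA per cell cannot be told apart.

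**Figure D2:**
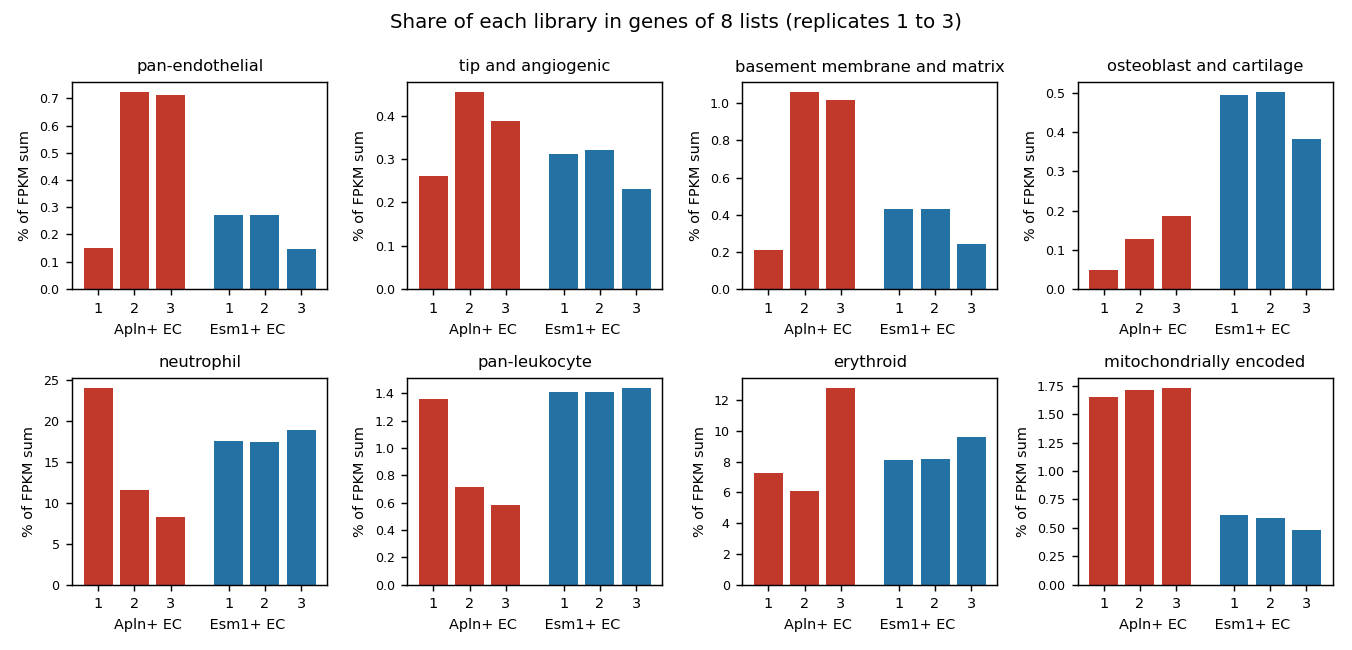
Percent of the FPKM sum of each library in the genes of 8 lists, for replicates 1 to 3 of Apln+ EC (left bars) and Esm1+ EC (right bars), each panel with its own axis from 0. Pan-endothelial genes take 0.15% in Apln+ replicate 1 and 0.723 and 0.714% in replicates 2 and 3, while the mitochondrially encoded genes take more in every Apln+ library than in every Esm1+ library.

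Across the 11657 genes tested, 20.7% were called: 1182 (10.1%) were called higher and 1230 (10.6%) lower in Apln+ EC than in Esm1+ EC (limma on log2(FPKM + 1), Benjamini-Hochberg adjusted p under 0.05, two-sided), of which 671 and 699 differed by more than 2-fold. The groups did not overlap for 43.3% of the genes tested. These calls rest on counting the near-alike Esm1+ libraries as 2 samples: with their mean as 1 sample, 0 genes were called in either direction by limma, with 3173 genes at an unadjusted p under 0.05, against 4573 with the 3 libraries kept apart. Fitting all 12 libraries together with that mean, a fit chosen after seeing the data, gave 1480 higher (12.7%) and 1508 lower (12.9%). These held 1123 and 1125 of the first calls with the same sign. Both fits compare the same Apln+ and Esm1+ libraries, so this overlap is no separate support. Leaving out Apln+ replicate 2, Esm1+ replicate 1 or Esm1+ replicate 2 also left 0 calls by limma (with 3118, 3182 and 3176 genes at an unadjusted p under 0.05), leaving out Apln+ replicate 3 left 144 and 167, leaving out Esm1+ replicate 3 left 752 and 756, and leaving out Apln+ replicate 1 gave 3161 and 3085. The p-values measure the spread between these libraries, since nothing in the labels says that they came from separate animals.

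**Figure D3:**
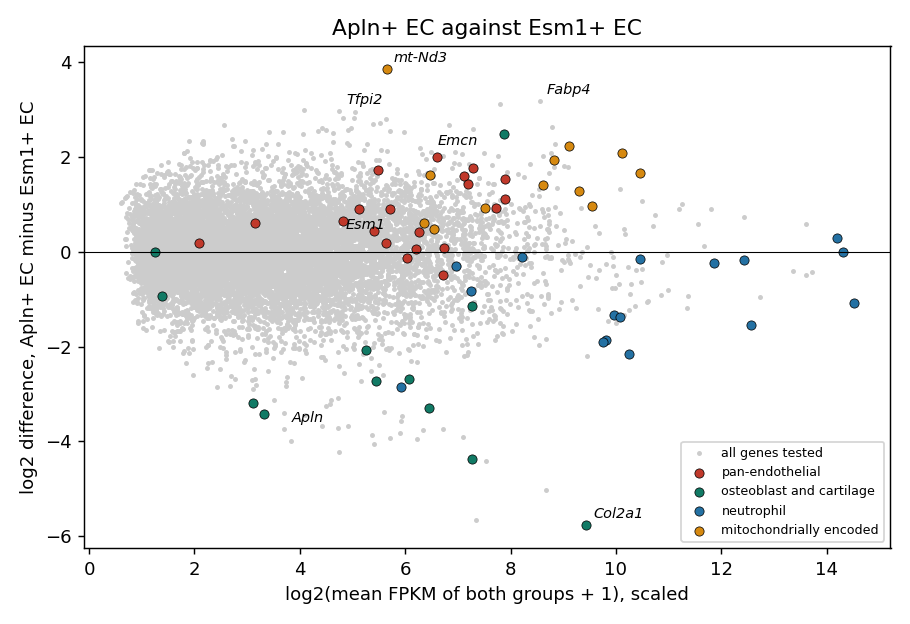
Log2 difference of each gene tested (Apln+ EC minus Esm1+ EC, vertical axis) against its mean scaled level, log2(FPKM + 1) (horizontal axis), with 4 gene lists coloured. Most osteoblast and cartilage genes lie well below 0, down to -5.77 for Col2a1, mitochondrially encoded genes lie above 0, and pan-endothelial genes lie around and above 0.

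The general endothelial genes did not separate the groups by the test. Of the 20 pan-endothelial genes tested, 0 were called in either direction, against 10.1% and 10.6% of all genes, and 3 had groups that did not overlap. Their median log2 difference was 0.78, with a range of -0.49 to 1.99, and -0.01 once each library was scaled to 14 endothelial genes (per endothelial level), where the median over all genes was -0.62. These 14 genes are general endothelial genes too, so that this scaling itself sets the median of the list near 0. Cdh5, the VE-cadherin of endothelial junctions, had 13, 49.5 and 42.8 scaled FPKM in Apln+ EC and 21.9, 20.6 and 15.2 in Esm1+ EC (log2 difference 0.65 ± 0.49, limma, adjusted p = 0.36). Pecam1 (CD31) differed by 0.05 (adjusted p = 0.94), Kdr (the VEGF receptor 2) by 0.43 (adjusted p = 0.51) and Tek (the angiopoietin receptor TIE2) by 0.90 (adjusted p = 0.19) in the limma fit. In each of these 4 genes Apln+ replicate 1 was the low library and replicates 2 and 3 were above all Esm1+ libraries. Without Apln+ replicate 1, and with the Esm1+ pair averaged, 14 of the 20 were called higher and 0 lower, against 21.7% and 20.9% of all genes. Apln+ replicate 1 had the lowest pan-endothelial share of its group (0.15%), so leaving it out raises endothelial genes by itself. Esm1+ replicate 3, at 0.146%, was kept in that fit. The calls of that fit, here and for the other lists, are therefore no separate support.

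Among vessel genes, Emcn rose in Apln+ EC. Emcn (chr3:137341067-137432185, plus strand), a sialomucin of capillary and venous endothelium, had 48.7, 200 and 196 scaled FPKM in Apln+ EC, against 32.8, 33.4 and 20.1 in Esm1+ EC. The groups did not overlap, and the log2 difference was 2.11 ± 0.56 (SE, limma, adjusted p = 0.044). Per endothelial level it was 1.31 and no longer called (adjusted p = 0.33), and within the tables it was 2.98 (adjusted p = 0.0091). Calcrl, the receptor subunit for adrenomedullin and CGRP, had 15.5, 27.7 and 26.9 scaled FPKM in Apln+ EC, against 4.1, 4.86 and 4.84 in Esm1+ EC (log2 difference 2.08 ± 0.25, limma, adjusted p = 0.011). Kcne3, a potassium channel subunit listed with tip cell genes, had 32.5, 176 and 120 scaled FPKM in Apln+ EC, against 13.2, 14.1 and 16.7 in Esm1+ EC (log2 difference 2.52 ± 0.58, limma, adjusted p = 0.031). Every Apln+ library was above every Esm1+ library for Emcn, Calcrl and Kcne3.

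The widest gaps on the higher side included other genes known from endothelium. Tfpi2 (chr6:3962595-3988919, minus strand), a secreted serine protease inhibitor, averaged 47.2 ± 24.7 scaled FPKM in Apln+ EC and 4.52 ± 0.736 in Esm1+ EC, a log2 difference of 2.96 ± 0.45 (limma, adjusted p = 0.013). Slco2a1 (chr9:102988712-103096002, plus strand), a prostaglandin transporter, averaged 56.9 ± 28.6 scaled FPKM in Apln+ EC and 6.33 ± 1 in Esm1+ EC (log2 difference 2.83 ± 0.43, adjusted p = 0.013). Fabp4, a lipid-binding protein of fat cells and capillaries, had 154, 613 and 1300 scaled FPKM in Apln+ EC, against 74.6, 78.9 and 26.6 in Esm1+ EC (log2 difference 3.18 ± 0.81, adjusted p = 0.039). Gng11, a G protein subunit, Fkbp7, a chaperone of the secretory pathway, Gstk1, a glutathione transferase, and Fam167b rose by log2 differences of 2.64, 2.69, 2.83 and 2.58 (limma, adjusted p between 0.02 and 0.041). In all of these the lowest Apln+ value came from replicate 1, and it was still above the highest Esm1+ value. None of them was called per endothelial level, where 0 genes (0%) were called higher and 47 (0.403%) lower in all (1668 genes at an unadjusted p under 0.05, and likewise 0 and 47 by limma-voom on recovered reads), and the log2 differences ran from 1.78 for Fam167b to 2.38 for Fabp4, and within the tables all but Fam167b (adjusted p = 0.22) were called higher.

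Signalling genes split. Of 11 Notch genes tested, Hes1, a transcriptional repressor and Notch target, rose (29.5, 84.5 and 157 scaled FPKM in Apln+ EC, against 16.2, 14.3 and 6.86 in Esm1+ EC, log2 difference 2.55, limma, adjusted p = 0.035), and Jag1, a Notch ligand, fell (0.372, 0.972 and 0.944 in Apln+ EC, against 1.95, 1.94 and 2.09 in Esm1+ EC, log2 difference -0.78, adjusted p = 0.04). With the Esm1+ pair averaged and 12 libraries fitted together, Jag1 was not called (adjusted p = 0.18). Its levels lay near the floor, and the Esm1+ libraries alone were enough for it to pass the filter. Of 15 BMP and TGF-beta genes, Id1 and Id2, targets of BMP signalling, rose by log2 differences of 2.08 and 1.10 (adjusted p = 0.032 and 0.025) and 0 fell. Of 14 niche factors, Ptn (pleiotrophin, a growth factor that acts on blood stem cells) averaged 42.1 ± 27.9 scaled FPKM in Apln+ EC and 5.25 ± 1.21 in Esm1+ EC (log2 difference 2.51, adjusted p = 0.033), Il6, a cytokine, averaged 15.7 ± 3.81 scaled FPKM in Apln+ EC and 5.94 ± 2.15 in Esm1+ EC (log2 difference 1.29, adjusted p = 0.029), and Jag1 was the member that fell. Of 9 leukocyte adhesion genes 1 rose, Jam3, a junctional adhesion molecule (16.3 ± 8.74 scaled FPKM in Apln+ EC and 2.24 ± 0.79 in Esm1+ EC, adjusted p = 0.024). These shares of 1 or 2 members are near the 10.1% of all genes called higher. Without Apln+ replicate 1, and with the Esm1+ pair averaged, 3 Notch, 5 BMP and TGF-beta, 6 niche and 5 adhesion genes were called higher and 1, 1, 0 and 1 lower, against 21.7% and 20.9% of all genes.

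The apelin, endothelin and adrenomedullin genes had a median log2 difference of 1.01 over 9 members tested and 0.34 per endothelial level, with Calcrl called higher and Apln called lower. In the within-table contrast 8 of the 9 were called higher and 0 lower, against 10.7% and 13.0% of all genes, with a median of 3.10. Between diaphysis EC and 9Gy1D EC, which enter that contrast with the opposite sign, 0 of the 9 were called higher and 7 lower, against 19.5% and 16.8% of all genes. Of 16 tip cell and angiogenic genes, Kcne3 rose and Apln fell in Apln+ EC, beside 10.1% and 10.6% of all genes, and the median was 0.49, or -0.28 per endothelial level. Of 9 VEGF ligands and receptors 0 were called, with a median of 0.49, or -0.25 per endothelial level. Without Apln+ replicate 1, and with the Esm1+ pair averaged, 11 of the 16 tip cell genes were called higher and 3 lower, 6 of the 9 VEGF genes higher and 1 lower, and 7 of the 9 apelin, endothelin and adrenomedullin genes higher and 1 lower, against 21.7% and 20.9% of all genes. Flt1, the VEGF receptor 1, had 16, 59.5 and 51.9 scaled FPKM in Apln+ EC and 17.4, 17.7 and 9.09 in Esm1+ EC (adjusted p = 0.11).

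Of 17 arterial genes tested, 2 fell and 0 rose in Apln+ EC, a share near the 10.6% of all genes, and the median was -0.17, or -0.91 per endothelial level. Gja5 (chr3:96904693-97077416, plus strand), connexin 40 of arterial endothelium, had 1.41, 7.27 and 3.1 scaled FPKM in Apln+ EC, against 19.6, 18.5 and 12.7 in Esm1+ EC. The groups did not overlap (log2 difference -2.02 ± 0.45, limma, adjusted p = 0.029), also at -2.74 per endothelial level without a call (adjusted p = 0.066). Gja5 was lower in diaphysis EC than in 9Gy1D EC too, by -2.33 (adjusted p = 0.003), and the within-table contrast was 0.30 (adjusted p = 0.77). Of 10 sinusoidal genes 0 were called, with a median of 0.68, or -0.06 per endothelial level. With the Esm1+ pair averaged and 12 libraries fitted together 3 of the 10 were called higher, against 12.7% of all genes. Without Apln+ replicate 1, and with the pair averaged, 6 of the 10 sinusoidal genes were called higher and 1 lower, and 5 of the 17 arterial genes higher and 2 lower, against 21.7% and 20.9% of all genes.

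Some genes, chosen after their values were seen, set both tamoxifen-labelled groups beside the Cdh5-mTnG groups, with no test. Stab2, a scavenger receptor of sinusoids, had 5.39 ± 2.86 FPKM in Apln+ EC, 2.97 ± 0.628 in Esm1+ EC, 34.9 ± 7.45 in diaphysis EC and 130 ± 74.6 in 9Gy1D EC, with the 12 libraries scaled together (SD, n = 3 each). Cd34, a sialomucin of small vessels and blood progenitors, had 441 ± 243 FPKM in Apln+ EC and 200 ± 44.8 in Esm1+ EC, beside 23.3 ± 3.92 in diaphysis EC and 148 ± 31.3 in 9Gy1D EC. Igfbp3, which binds insulin-like growth factors, had 160 ± 86.7 FPKM in Apln+ EC and 112 ± 37.4 in Esm1+ EC, beside 22.7 ± 5.74 in diaphysis EC and 53.3 ± 8.87 in 9Gy1D EC. Gja4 (connexin 37) had 48.6 ± 32.1 FPKM in Apln+ EC and 72.2 ± 27.7 in Esm1+ EC, beside 6.37 ± 1.74 in diaphysis EC and 17.7 ± 0.64 in 9Gy1D EC. Stab2 was thus low, and Igfbp3 and Gja4 were on average high, in both tamoxifen-labelled groups compared with the Cdh5-mTnG groups. The lowest Apln+ values of Igfbp3, Gja4 and Cd34 were 61.5, 12.1 and 161 FPKM, beside highest 9Gy1D values of 60.7, 18.2 and 171 FPKM, so that Gja4 and Cd34 overlapped between these groups.

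The largest differences of the comparison were cartilage and bone genes, which fell in Apln+ EC. Col2a1 (chr15:97975602-98004695, minus strand), the main collagen of cartilage, had 9.75, 15.5 and 75 scaled FPKM in Apln+ EC, against 1576, 1622 and 849 in Esm1+ EC. Its means of 33.4 ± 36.1 in Apln+ EC and 1349 ± 434 in Esm1+ EC differ 40.4-fold (log2 difference -5.77 ± 0.72, limma, adjusted p = 0.011). Sox9 (chr11:112782224-112787760, plus strand), the transcription factor of chondrocytes, had 0.349, 0.232 and 1.73 scaled FPKM in Apln+ EC, against 20.4, 19.8 and 11.5 in Esm1+ EC (log2 difference -3.42 ± 0.37, adjusted p = 0.011). No Apln+ library reached an Esm1+ library for either gene. Comp, Matn3, Chad, Col9a2, Col9a3 and Fmod, all of cartilage or tendon matrix, fell by log2 differences of 3.82 to 4.42, from 11.6-fold for Col9a3 to 17.7-fold for Fmod (limma, adjusted p between 0.011 and 0.025). Smpd3, a sphingomyelinase of growth plate and bone, C1qtnf3, a secreted protein of cartilage, and Ctsk, the collagen-cleaving protease of osteoclasts, fell by 4.22, 3.98 and 3.76 (adjusted p = 0.011, 0.011 and 0.019 in the limma fit).

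Of the 12 osteoblast and cartilage genes tested, 9 fell and 1 rose in Apln+ EC, against 10.6% and 10.1% of all genes. Their median log2 difference was -2.70, with a range of -5.77 to 2.48. Sox9 and Acan of this list, like C1qtnf3 and Apln, reached 1 FPKM in only 1 Apln+ library. They could thus pass the filter only through the Esm1+ libraries. With the Esm1+ pair averaged and 12 libraries fitted together 6 fell and 1 rose, against 12.9% and 12.7% of all genes. Per endothelial level 3 fell and 0 rose, against 0.403% and 0% of all genes, with a median of -3.45 against -0.62 over all genes. In the within-table contrast 6 fell and 1 rose, against 13.0% and 10.7% of all genes, with a median of -1.14. Per endothelial level, 11 of the 12 genes named for the widest lower gaps, Apln among them, were called lower, beside 0.403% of all genes. Col1a1 was the other (limma, adjusted p = 0.061). These 12 were chosen by their gaps in the same 6 libraries, so their calls here are no separate support. With the Esm1+ pair averaged, 0 genes were called lower per endothelial level. Col1a1, the main collagen of bone, had 14.2, 8.04 and 10.7 scaled FPKM in Apln+ EC, against 153, 157 and 571 in Esm1+ EC (log2 difference -4.36, adjusted p = 0.011). Bglap (osteocalcin, which shares reads with a close copy and so is uncertain) had 16.2, 7.14 and 28.1 in Apln+ EC, against 174, 164 and 132 in Esm1+ EC (adjusted p = 0.011, or 0.1 with the Esm1+ pair averaged and 12 libraries fitted together). For Col1a1 and Bglap the within-table contrasts were -0.58 and -0.32 and not called (adjusted p = 0.82 and 0.91), and 1 of the 3 9Gy1D libraries was high in both genes. Col2a1 and Sox9 were low in the other groups of the tables. Col2a1 was listed at 0 in diaphysis EC and averaged 3.19 ± 2.36 FPKM in 9Gy1D EC. Sox9 averaged 0.126 ± 0.063 FPKM in diaphysis EC and 0.0972 ± 0.0592 FPKM in 9Gy1D EC. The within-table contrasts of Col2a1 and Sox9 were -3.89 and -3.45 (adjusted p = 0.013 and 0.00057).

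**Figure D4:**
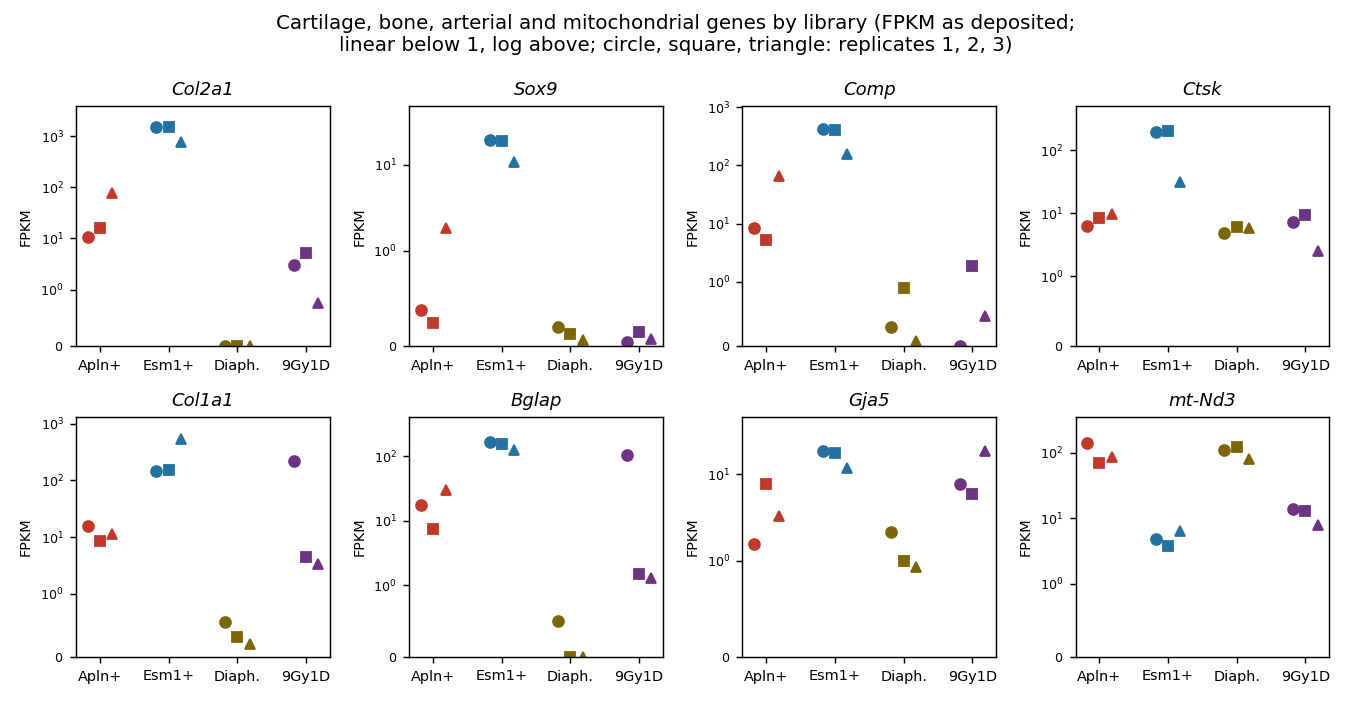
Deposited FPKM of 8 genes in each library of Apln+ EC, Esm1+ EC, diaphysis EC and 9Gy1D EC (3 each), linear below 1 and logarithmic above. Col2a1, Sox9 and Comp are higher in each of the 3 Esm1+ libraries than in any other of these 12. mt-Nd3 follows the table, with Apln+ EC near diaphysis EC and Esm1+ EC near 9Gy1D EC. Gja5 leans the same way on average, but its highest Apln+ library lies above its lowest 9Gy1D library.

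In the other stromal lists 0 or 1 members were called, too few to tell from the 10.1% of all genes called higher and 10.6% called lower. Of 8 mesenchymal stromal genes 1 fell, Dcn (decorin, 12.2 ± 5.43 scaled FPKM in Apln+ EC and 32.1 ± 9.82 in Esm1+ EC, adjusted p = 0.043, or 0.21 with the Esm1+ pair averaged and 12 libraries fitted), and of 3 mural genes 0 were called. Fn1 (fibronectin) fell as the called member of 16 basement membrane and matrix genes, whose median was 0.29, or -0.42 per endothelial level. The part of cartilage or bone cells carried through the sort in the cartilage result was not tested, and the whole-bone and marrow gates cannot be told apart from the groups.

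Some blood cell genes fell in Apln+ EC. Of 11 pan-leukocyte genes 2 fell (Laptm5 and Lcp1) and 0 rose, with a median of -1.03, beside 10.6% of all genes called lower. Ptprc (CD45) had 94.2, 23.8 and 25.5 scaled FPKM in Apln+ EC and 87.9, 88.8 and 91.8 in Esm1+ EC, so that Apln+ replicate 1 lay with the Esm1+ libraries and the test was not passed (log2 difference -1.19 ± 0.51, adjusted p = 0.13). Without Apln+ replicate 1, and with the Esm1+ pair averaged, 11 of 11 pan-leukocyte genes were called lower, against 20.9% of all genes. That library had the highest pan-leukocyte share of its group (1.36%), so leaving it out lowers these genes by itself. The 11 calls are therefore no separate support. Of 16 neutrophil genes 3 fell, Cebpe, a transcription factor of granule formation (15.7 ± 11.5 scaled FPKM in Apln+ EC and 104 ± 6.17 in Esm1+ EC, adjusted p = 0.013), Cd177 and Mmp9. Csf1r and Cd68 fell among 10 monocyte and macrophage genes. The neutrophil and monocyte counts stand beside 10.6% of all genes called lower, with too few members to tell from that share. Of 13 erythroid genes 5 fell, among them Klf1, the erythroid master regulator, with 80.8, 60.2 and 82.5 scaled FPKM in Apln+ EC, against 186, 195 and 199 in Esm1+ EC (log2 difference -1.38 ± 0.18, adjusted p = 0.011), Ermap, Slc4a1 and Gata1. The 5 calls stand beside 10.6% of all genes called lower. The other 8 were not called, and 4 of the 13 had a positive difference, up to 0.90. Together the 13 took 7.29, 6.12 and 12.8% of the FPKM sum in Apln+ EC and 8.11, 8.2 and 9.6% in Esm1+ EC, so the erythroid share overlapped. Of 11 B lymphoid and 4 plasma cell genes 0 were called, and of 9 T and NK genes Klrd1, an NK receptor subunit, rose (5.35, 1.87 and 1.15 scaled FPKM in Apln+ EC, against 0.118, 0.108 and 0 in Esm1+ EC), beside 10.1% of all genes. Klrd1 reached 1 FPKM only in Apln+ libraries, so that it could pass the filter only as a higher gene. It also followed the table, at 13.4 ± 1.57 FPKM in diaphysis EC and 0.417 ± 0.157 in 9Gy1D EC, with 12 libraries scaled together. In the within-table contrast 0 of the 9 were called higher and 1 lower, against 10.7% and 13.0% of all genes. Epx and Prss34, granule enzymes of eosinophils and basophils, fell among 10 genes of those cells, Itga2b and Gp5 among 5 megakaryocyte genes, and Gfi1b, Kit and Mecom among 9 stem and progenitor genes. These counts too stand beside 10.6% of all genes called lower, with too few members to tell from that share. Of the 9 stem and progenitor genes, 3 had a positive difference, up to 1.67. With the Esm1+ pair averaged and 12 libraries fitted together, 2 stem and progenitor genes were called higher and 2 lower, against 12.7% and 12.9% of all genes. The 15 genes of that list took 0.0913, 0.331 and 0.325% of the FPKM sum in Apln+ EC and 0.112, 0.112 and 0.0836% in Esm1+ EC. Epx, Gata1, Itga2b, Gp5 and Kit were not called with the Esm1+ pair averaged and 12 libraries fitted together (adjusted p between 0.068 and 0.63). Gp5 and Mecom lay near the floor and reached 1 FPKM only in Esm1+ libraries, so that they could pass the filter only as lower genes.

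Part of the metabolic and proliferation genes fell in Apln+ EC. Of 19 glycolysis and hypoxia genes, 7 fell and 0 rose, with a median of -0.54 against 0.00 over all genes and beside 10.6% of all genes called lower. Eno1 (enolase) had 163, 132 and 123 scaled FPKM in Apln+ EC, against 344, 348 and 347 in Esm1+ EC (log2 difference -1.32 ± 0.17, adjusted p = 0.011), and Hk1, Hk2 and Pkm, at the first and last steps of glycolysis, fell by 1.20, 1.24 and 1.23. Of 30 cell cycle genes 8 fell and 0 rose, with a median of -0.56, led by Plk1, a mitotic kinase, and Mcm2, of the replicative helicase (log2 differences -1.73 and -1.63, adjusted p = 0.014 and 0.012). Of 17 cholesterol genes 5 fell and 1 rose, against 10.6% and 10.1% of all genes. Blood cells also use these genes: the 11 pan-leukocyte genes took 1.36, 0.718 and 0.582% of the FPKM sum in Apln+ EC and 1.41, 1.41 and 1.44% in Esm1+ EC. Their part in these differences was not tested, and per endothelial level 0 of the 19, 30 and 17 genes were called, with medians of -1.33, -1.34 and -0.99 against -0.62 over all genes.

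Of 18 immediate early genes, which cell dissociation is known to induce, 7 fell and 2 rose in Apln+ EC, against 10.6% and 10.1% of all genes. Egr2 (5.78 ± 2.53 scaled FPKM in Apln+ EC and 26.3 ± 3.83 in Esm1+ EC, adjusted p = 0.013), Nr4a1 (158 ± 68.3 in Apln+ EC and 584 ± 62.8 in Esm1+ EC, adjusted p = 0.014), Egr1 and Junb fell. In diaphysis EC 11 of the 18 were called lower than in 9Gy1D EC and 1 higher, against 16.8% and 19.5% of all genes, and in the within-table contrast 1 was called lower and 2 higher, against 13.0% and 10.7%. Of 19 interferon response genes 3 fell, among them Stat2 and Oas1a, and Mx2 rose (1.64, 2.26 and 1.71 scaled FPKM in Apln+ EC, against 0, 0 and 0.185 in Esm1+ EC). Mx2 lay near the floor and reached 1 FPKM only in Apln+ libraries, so that it could pass the filter only as a higher gene. Of 15 p53 targets, Cdkn1a (p21) and Tnfrsf10b rose and Btg2 and Sesn2 fell, with a median of -0.04. The interferon and p53 counts stand beside 10.1% of all genes called higher and 10.6% called lower. Tnfrsf10b, like Mx2, reached 1 FPKM only in Apln+ libraries. Cdkn1a had 130, 102 and 131 scaled FPKM in Apln+ EC, against 69, 68.1 and 53.2 in Esm1+ EC (adjusted p = 0.023).

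Most genes encoded by the mitochondrion rose in Apln+ EC and were also higher in the other group of the same table. Of 12 mitochondrially encoded genes 10 rose and 0 fell, with a median of 1.52, against 10.1% of all genes. mt-Nd3, a subunit of complex I, had 130, 66.7 and 83 scaled FPKM in Apln+ EC, against 5.23, 3.97 and 6.84 in Esm1+ EC (log2 difference 3.86 ± 0.29, adjusted p = 0.0099), and mt-Co2, mt-Co3 and mt-Nd1 rose by 2.23, 2.08 and 1.93. Between diaphysis EC and 9Gy1D EC 10 of the 12 were likewise higher and 0 lower, against 19.5% and 16.8% of all genes. In the within-table contrast 2 of the 12 were called higher and 0 lower, against 10.7% and 13.0% of all genes, with a median of 0.63. Per endothelial level 0 of the 12 were called, with a median of 0.72 against -0.62 over all genes. Rpl22l1, a ribosomal protein paralog, and the pseudogenes Rpl9-ps4, Rpl35a-ps2 and Rps13-ps1, whose reads cannot be told from those of their parent genes, rose by 2.72, 2.67, 2.62 and 2.98, and Rpl22l1, Rpl9-ps4 and Rpl35a-ps2 were also higher in diaphysis EC than in 9Gy1D EC, by 1.32, 1.63 and 1.36. Among the 6 libraries, Rpl9-ps4 reached 1 FPKM only in Apln+ EC, so that it could pass the filter only as a higher gene. Rps13-ps1 did not follow the table: it averaged 28 ± 7.5 FPKM in Apln+ EC and 3.06 ± 2.2 in Esm1+ EC, beside 0.893 ± 0.235 in diaphysis EC and 0.331 ± 0.342 in 9Gy1D EC, with the 12 libraries scaled together (SD, n = 3 each). Of 3 sex-linked genes tested, all on the Y chromosome, Uty rose (1.33 ± 0.255 scaled FPKM in Apln+ EC and 0.515 ± 0.121 in Esm1+ EC, limma, adjusted p = 0.049, or 0.14 with the Esm1+ pair averaged and 12 libraries fitted together). Uty lay near the floor and likewise reached 1 FPKM only in Apln+ libraries. Ddx3y had 20.7, 16.4 and 18.2 scaled FPKM in Apln+ EC, against 12.3, 13.2 and 4.14 in Esm1+ EC (limma, adjusted p = 0.13), and Eif2s3y had 15.7, 8.89 and 8.82 in Apln+ EC, against 6.89, 6.96 and 2.32 in Esm1+ EC (adjusted p = 0.12). Xist was listed at 0.00737, 0 and 0.0115 FPKM in Apln+ EC and at 0.00798, 0.0292 and 0.708 FPKM in Esm1+ EC, so that Y-linked RNA was present in all 6 libraries and Esm1+ replicate 3 stood apart by Xist.

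The difference between Apln+ EC and Esm1+ EC ran in part along the difference between the other groups of the same tables. Of the 1182 genes called higher in Apln+ EC, 567 (48.0%) were also called higher in diaphysis EC than in 9Gy1D EC, against 19.5% of all genes, and of the 1230 called lower, 450 (36.6%) were also called lower there, against 16.8%. The contrast formed within the tables called 1243 genes higher and 1513 lower, or 839 and 1121 with the Esm1+ pair averaged. It removes a shift shared by all libraries of a table, and it also holds the difference of diaphysis EC from 9Gy1D EC, which contains the irradiation of the second. Of the vessel genes above, Tfpi2 (3.41, adjusted p = 0.002), Slco2a1 (3.72, adjusted p = 0.0048), Kcne3 (4.16, adjusted p = 0.0027), Jam3 (3.40, adjusted p = 0.0021) and Ptn (3.0, adjusted p = 0.019) were called higher in it, while Hes1, Id2 and Il6 were not (adjusted p = 0.16, 0.24 and 0.62).

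**Figure D5:**
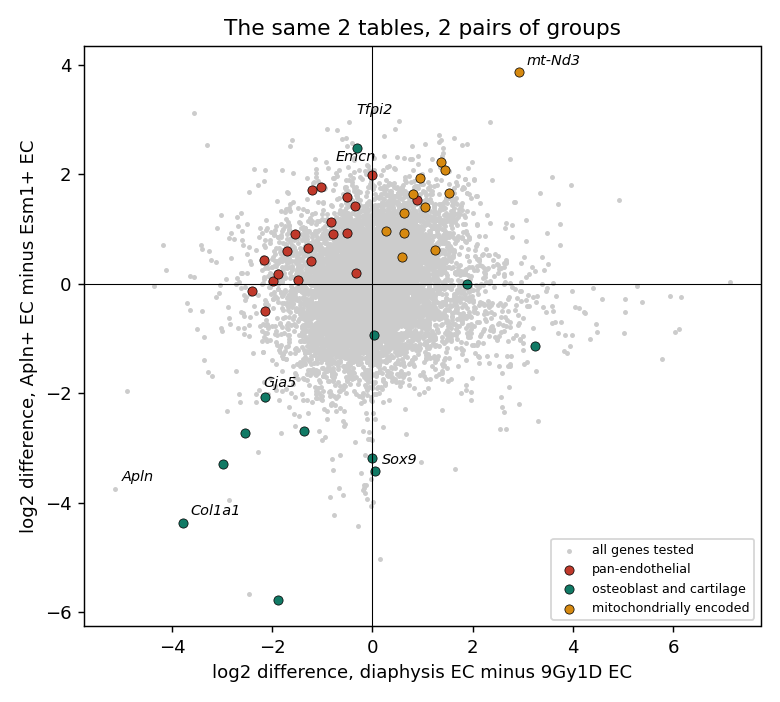
Log2 difference of each gene tested between Apln+ EC and Esm1+ EC (vertical axis) against that between diaphysis EC and 9Gy1D EC (horizontal axis), with no library shared between the axes. Apln, Gja5 and mt-Nd3 lie along the rising diagonal, while Sox9, Tfpi2 and Emcn lie far from 0 on the vertical axis and within 1 of 0 on the horizontal axis.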

How the data were processed

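RNA of sorted cells was measured by RNA-seq. The authors deposited FPKM per gene in separate tables, a unit read from the tables' values and column names. The submitters' processing notes name build mm10 and the tools DESeq2 1.18.1, bcl2fastq 2.19.1.403, HTSeq 0.6.1 and TopHat2 2.1.1, without saying how each was used. The tables share 38899 genes after 27 names turned into dates were left out, and values were not strand-resolved as far as the sources say. Of the 125 genes named or followed, 28 overlap another gene in GENCODE M21 (GRCm38), which gave the positions.

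The steps between low values allowed whole reads to be recovered for 38899 of 38899 genes (100%, tolerance 0.005 of a read plus 2e-07 of the value), which gave the depths. SMART-Seq reads carry no molecular identifiers.

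The 6 columns were scaled by median of ratios, and log2(FPKM + 1) was fitted with limma 3.58.1 (eBayes with trend, R 4.3.3), so that fold changes of low genes are understated. Genes reaching 1 FPKM or more in 3 or more of 6 columns were tested, called at Benjamini-Hochberg adjusted p under 0.05 and two-sided. A second fit scaled each column to 14 endothelial genes, and a further fit used 12 columns for the within-table contrast. The fit was tested on simulated data. Tables were processed separately, so table and group cannot be told apart.

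The groups, the 34 gene lists and their members were chosen with earlier results of these data known. Named genes are identity genes (Apln, Aplnr, Esm1, Cdh5, Pecam1, Kdr, Tek, Emcn, Ptprc), the 12 largest called differences each way among non-overlapping groups with a higher mean of at least 5 scaled FPKM (without predicted genes and receptor segments), up to 8 each way from the endothelial lists per endothelial level, and up to 4 called members per list, or up to 2 of largest difference where fewer than 2 were called. Alternatives changed the pseudocount, filter, scaling, unit, fit, block and libraries, and fits combining the averaged Esm1+ pair with 12 libraries or without Apln+ replicate 1 were chosen after seeing the data. Promoter windows came from RefSeq (3 of 3 genes matched).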

Additional observations from a re-analysis of the deposited data

How the results depend on the processing

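The counts called between Apln+ EC and Esm1+ EC, 1182 higher and 1230 lower, kept within 1.5 times under other pseudocounts, a filter on the mean, TPM, scaling over genes outside the lists, a fit without trend and limma-voom on recovered reads (1041 and 1279). They were 777 and 737 with no filter, 1894 and 788 on values as deposited, and 2169 and 2145 with all 12 libraries fitted together. With the Esm1+ pair averaged they were 0 and 0, with Apln+ replicate 1 also left out 2524 and 2437, and with 12 libraries fitted as well 3012 and 2787. Leaving out 1 replicate gave 0 to 3161 higher and 0 to 3085 lower. Same-numbered replicates were not paired (correlations of deviations -0.22, 0.12 and -0.24), and a replicate block gave 0 and 0 calls. Per endothelial level, 0 higher and 47 lower became 116 and 743 with 12 libraries and 0 lower with no filter or with the pair averaged, 0 to 147 higher and 0 to 6120 lower on leaving out 1 replicate. The replicate block gave 50 lower per endothelial level. Within the tables, 1243 and 1513 became 839 and 1121 with the pair averaged, and 2304 and 2338 with Apln+ replicate 1 also left out. They were 593 to 2488 and 923 to 2573 on leaving out 1 replicate. Esm1 turned to -0.14 without Apln+ replicate 2, Pecam1 to -0.18, -0.21 and -0.12 without Apln+ replicates 2 and 3 and Esm1+ replicate 3, and Rn7sk to -0.33 without Apln+ replicate 3, none of them called. Leaving out 1 replicate gave -0.14 to 0.90 for Esm1 and -0.21 to 0.55 for Pecam1. Apart from changes fixed by fewer samples or genes, the cause was not tested. Low genes such as Apln in Apln+ EC (10 to 38 reads) rest on few reads.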
